A study of Oryctolagus cuniculus with 8 samples.

Results

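The genes described here are 6 that act on the mitotic spindle or on condensed chromosomes, NUSAP1, TPX2, KIF20A, NDC80, NCAPH and MKI67. Their probes were found by name, as every probe that is no control and whose annotation gives one of these symbols or the gene's full name. This gave 13 of the 43603 probes on the array, and 6 of the 10002 gene symbols that the probes could be given. The genes were picked with their values in these same samples in view, so the differences between the groups below are a description, with no test.

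RNA came from the forebrain of New Zealand rabbit pups delivered early by Caesarean section, at day 29 of a gestation of 32 days, fed by gavage in an incubator and killed on postnatal day 14. Pups of the dexamethasone group received this synthetic glucocorticoid by intramuscular injection, 0.25 mg/kg 2 times a day for no more than 5 days (4 samples). Pups of the saline group received the vehicle (4 samples). The title of the series asks whether postnatal glucocorticoids suppress the making of myelin. All pups in both groups were preterm, and whole forebrain holds dividing precursor cells beside neurons and glia that no longer divide.

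At mitosis a cell packs its copied DNA into compact chromosomes, and a spindle of microtubules attaches to them and pulls the copies apart. The RNAs of many proteins that do this work are made late in the cell cycle and are scarce in cells that have stopped dividing. In the forebrain around birth, dividing cells are mostly glial precursors and progenitors near the ventricles. In bulk RNA, fewer dividing cells and less of an RNA per dividing cell cannot be told apart.

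Each gene was read by synthetic 60-base probes, and the sequences show how far probes of a gene are separate readings. The 3 NUSAP1 probes overlap end to end, and in them capitals mark bases that another NUSAP1 probe also holds.
NUSAP1 A_04_P072304: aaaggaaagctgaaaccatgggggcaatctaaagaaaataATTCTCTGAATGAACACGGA
NUSAP1 A_04_P072303: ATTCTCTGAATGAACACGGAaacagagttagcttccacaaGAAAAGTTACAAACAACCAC
NUSAP1 A_04_P072302: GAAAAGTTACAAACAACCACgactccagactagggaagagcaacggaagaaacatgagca
The first lies at chr17:30739176-30744997 and the third at chr17:30737716-30739155 on the minus strand of build oryCun2, and both cross an intron. The second lies inside 1 exon at chr17:30739136-30739195. Each outer probe shares 20 bases with the middle one, which thus shares 40 of its 60.

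The 5 NCAPH probes are shifts of 1 sequence, and the outermost of them show it. Capitals mark the 54 bases that all 5 hold.
NCAPH A_04_P081281: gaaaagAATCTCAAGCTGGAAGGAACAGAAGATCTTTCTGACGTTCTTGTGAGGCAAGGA
NCAPH A_04_P081277: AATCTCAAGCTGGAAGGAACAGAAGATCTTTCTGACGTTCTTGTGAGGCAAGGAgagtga
Together they span chr2:94957140-94959502 on the minus strand, and 4 of the 5 cross an intron. They are close to repeat measurements of 1 site. The 2 NDC80 probes share no base and are separate readings of the transcript.
NDC80 A_04_P070873: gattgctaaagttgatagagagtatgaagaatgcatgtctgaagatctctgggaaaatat
NDC80 A_04_P070872: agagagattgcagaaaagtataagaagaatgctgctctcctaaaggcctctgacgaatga
They lie side by side at chr9:59442009-59442068 and chr9:59441948-59442007 on the minus strand.

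TPX2, KIF20A and MKI67 have 1 probe each, so their values rest on the following sequences alone.
TPX2 A_04_P088762: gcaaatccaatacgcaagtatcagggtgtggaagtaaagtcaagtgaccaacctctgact
KIF20A A_04_P039767: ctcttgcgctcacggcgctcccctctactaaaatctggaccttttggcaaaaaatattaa
MKI67 A_04_P049113: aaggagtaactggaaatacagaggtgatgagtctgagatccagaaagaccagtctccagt
The TPX2 probe lies at chr4:7451478-7451537 on the minus strand, and the KIF20A probe at chr3:20485538-20485597 on the plus strand. The MKI67 probe was placed by the array's annotation at chr4:28803243-28803302 on the plus strand, between HAO1 and BMP2. Of the 10 genes that flank this position, 0 lie on the chromosome that RefSeq gives MKI67 in assembly mOryCun1.1, whereas for each of the other 5 genes all 10 flanking genes lie on the gene's own chromosome. The MKI67 probe was tied to its gene by the array's gene ID (100343428). Whether it reads MKI67 was not tested, which holds for all MKI67 values below.

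Each of the 4 arrays carried 2 samples of the same group, odd-numbered samples in the dye Cy3 and even-numbered samples in Cy5. The dexamethasone arrays were on slide 2 and the saline arrays on slide 1, read in separate scans, so effects of slide or scan and of treatment cannot be told apart here. Spots well above background made up 47.7% to 64.3% of the spots in dexamethasone samples and 39.1% to 59.7% in saline samples. The 10 spike-in probes read RNA that was added at the labelling step and stands for no rabbit gene, and they were lower in dexamethasone samples in 10 of 10 cases, by log2 differences between -0.56 and -0.30 with a median of -0.41. The median log2 difference of the 6 genes was -0.38, close to that of the spike-ins, against 0.02 for all 10790 genes tested, and the part of the spike-in shift in the genes' differences was not tested. The number of arrays limits the precision.

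The 13 probes were all readable in most samples. Of them, 11 were well above background in all 8 samples. A NCAPH probe (A_04_P081278) was not so in dexamethasone 1 and saline 1, and a NDC80 probe (A_04_P070873) was not so in saline 3. None of their spots was flagged as an outlier, and none was saturated. All 13 passed the filter on dim probes.

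All 6 genes, each taken from its brightest probe, were lower with dexamethasone, in log2 normalised intensity (dexamethasone minus saline), from -0.77 for NUSAP1 to -0.27 for TPX2. In NUSAP1, NDC80 and MKI67 every dexamethasone value lay below every saline value, and in TPX2, KIF20A and NCAPH the groups overlapped. The fit of all 10790 genes (limma, Benjamini-Hochberg) called 7 of them at an adjusted p under 0.05 (0.0649%), 2 higher and 5 lower, and 0 of the 6. Groups did not overlap, with dexamethasone lower, in 7.59% of all genes, and the difference was below 0 in 46.1%. All genes here include entries without a gene symbol. Among the 6088 with a symbol, 356 had dexamethasone lower without overlap, 41.3% were below 0, and 1 was called higher and 0 lower. The 6 were picked on this contrast, so these counts say nothing of their own about them.

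**Figure D1:**
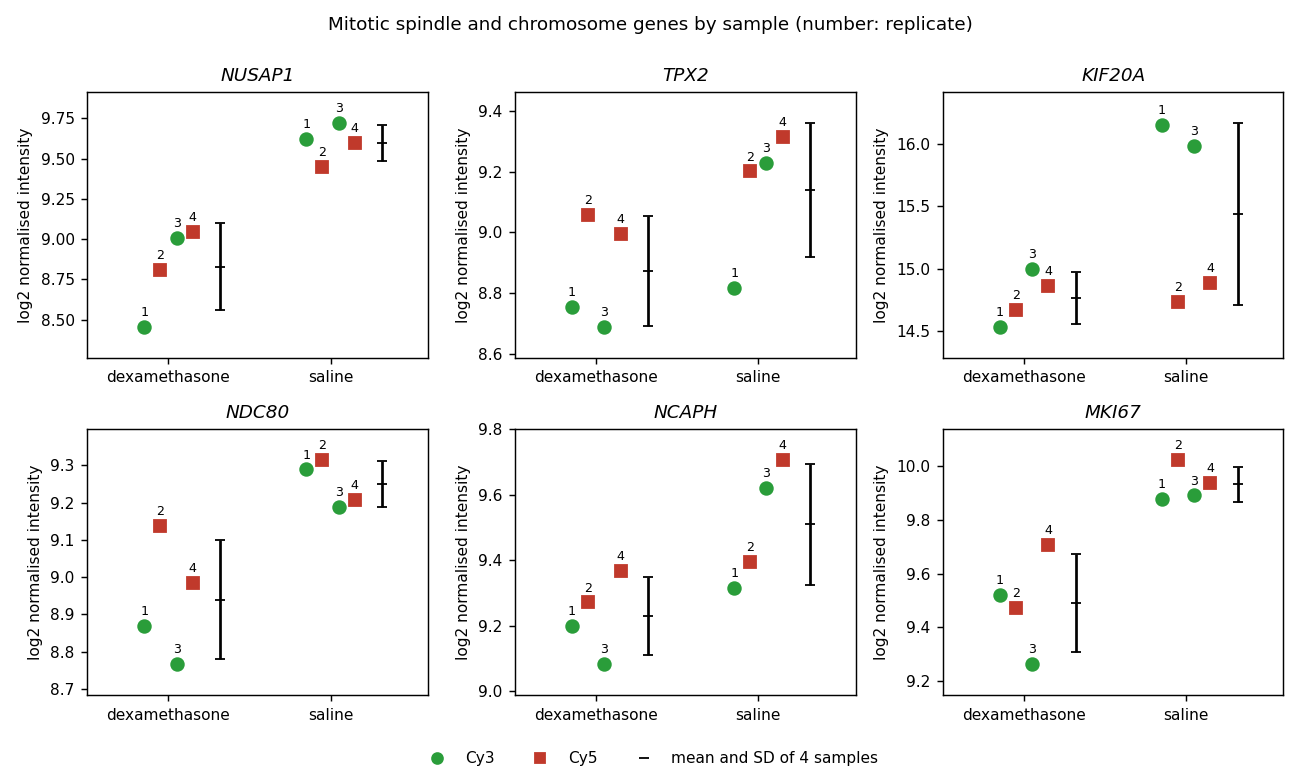
Log2 normalised intensity (vertical axes, a separate range per gene) of the probe that stands for each of the 6 genes, in the 4 dexamethasone samples (left) and the 4 saline samples (right). Circles are Cy3 samples, squares are Cy5 samples, the number is the replicate, and the bar gives the mean and SD. The groups do not overlap in NUSAP1, NDC80 and MKI67, and the 2 high saline values of KIF20A, 16.15 and 15.98, are both Cy3 samples.

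NUSAP1 encodes a nucleolar and spindle protein that bundles microtubules near chromosomes. Its brightest probe read log2 intensities of 8.45, 8.81, 9.01 and 9.04 in dexamethasone samples 1 to 4 and 9.62, 9.45, 9.72 and 9.60 in saline samples 1 to 4. The highest dexamethasone sample thus stayed below the lowest saline sample. The means were 8.83 ± 0.27 with dexamethasone and 9.60 ± 0.11 with saline (SD, n = 4 each), a log2 difference of -0.77 (SE 0.16), or 58.6% of the saline level. Within Cy3 the difference was -0.94 and within Cy5 -0.60, from 2 samples against 2 in each dye.

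The difference was also present in NUSAP1 before any correction. The spot intensity of the same probe was 195 and 299 in the Cy3 dexamethasone samples, against 443 and 470 in the Cy3 saline samples. In Cy5 it was 317 and 409 with dexamethasone, against 623 and 699 with saline. Both dyes thus separated the groups without normalisation.

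The other 2 NUSAP1 probes, which share sequence with each other or with the first, differed less. A_04_P072303 was lower by -0.33 (SE 0.10) and A_04_P072304 by -0.33 (SE 0.10). Their groups did not overlap either: A_04_P072303 ran from 8.41 to 8.70 with dexamethasone and from 8.74 to 8.97 with saline, and A_04_P072304 from 8.68 to 8.996 with dexamethasone and from 9.08 to 9.27 with saline. The size of the NUSAP1 difference therefore depends on the probe, and the mean of the 3 gives -0.48.

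TPX2 encodes a microtubule-binding protein that activates Aurora A kinase on the spindle. Its probe read 8.75, 9.06, 8.69 and 8.996 in dexamethasone samples 1 to 4 and 8.82, 9.20, 9.23 and 9.31 in saline samples 1 to 4. Only saline 1 fell inside the dexamethasone range. The means were 8.87 ± 0.18 with dexamethasone and 9.14 ± 0.22 with saline (SD, n = 4 each), with a log2 difference of -0.27 (SE 0.12). In uncorrected background-subtracted intensity the dyes went opposite ways, with a log2 difference of 0.22 in Cy3 and -0.42 in Cy5. In Cy3 the sign thus comes with the normalisation. The median of all spots was also higher with dexamethasone in Cy3, at 154 and 147 against 135 and 120 with saline. In Cy5 it was 161 and 137 with dexamethasone, against 146 and 157 with saline. With 1 array left out in turn the difference ran from -0.40 to -0.13. The gene of its kinase partner, AURKA, had a log2 difference of -0.10 (SE 0.10), but was well above background in only 3 dexamethasone and 2 saline samples.

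KIF20A encodes a motor protein of the central spindle that is needed for cytokinesis. Its probe read 14.53, 14.67, 15.00 and 14.86 in dexamethasone samples 1 to 4 and 16.15, 14.73, 15.98 and 14.88 in saline samples 1 to 4. Saline 1 and 3, both in Cy3, stood far above the other 6 samples, while the Cy5 saline samples lay within the dexamethasone range. The means were 14.77 ± 0.21 with dexamethasone and 15.44 ± 0.73 with saline (SD, n = 4 each), a log2 difference of -0.67 (SE 0.31). Group means of the other genes of the 6 were far lower, from 8.83 (NUSAP1, dexamethasone) to 9.93 (MKI67, saline). Whether this very bright probe reads KIF20A alone was not tested.

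Split by dye, the KIF20A difference was -1.30 in Cy3 and -0.04 in Cy5. Uncorrected intensities were 15911 and 22522 in Cy3 dexamethasone samples, against 49278 and 31734 in Cy3 saline samples. In Cy5 they were 49194 and 50056 with dexamethasone, against 37061 and 45367 with saline, which is the opposite order. The probe thus gave a difference in 1 dye, and whether the dyes differ was not tested. Under scaling of each sample to its 75th percentile, the difference was -0.05.

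NDC80 encodes the kinetochore subunit that grips the ends of spindle microtubules. Its brighter probe, A_04_P070872, read 8.87, 9.14, 8.77 and 8.99 in dexamethasone samples 1 to 4 and 9.29, 9.31, 9.19 and 9.21 in saline samples 1 to 4. The groups did not overlap, though dexamethasone 2 was close to the lowest saline sample. The means were 8.94 ± 0.16 with dexamethasone and 9.25 ± 0.06 with saline (SD, n = 4 each), with a log2 difference of -0.31 (SE 0.10).

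The second NDC80 probe did not show this difference. A_04_P070873 read 8.71, 9.08, 8.54 and 9.0003 in dexamethasone samples 1 to 4 and 8.91, 9.18, 8.63 and 8.70 in saline samples 1 to 4, and the groups overlapped. Its log2 difference was -0.02 (SE 0.14), with -0.15 in Cy3 and 0.10 in Cy5. The mean of the 2 probes, which have no base in common, gives -0.17. Of the other subunits of the NDC80 complex, NUF2 had a log2 difference of -0.03 (SE 0.10) and SPC25 of -0.17 (SE 0.12). Both were dim, each well above background in only 2 dexamethasone and 2 saline samples, so these values say little about either gene.

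NCAPH encodes the kleisin subunit that closes the ring of condensin I, which compacts mitotic chromosomes. Its brightest probe, A_04_P081277, read 9.20, 9.27, 9.08 and 9.37 in dexamethasone samples 1 to 4 and 9.32, 9.39, 9.62 and 9.71 in saline samples 1 to 4. Saline 3 and 4, which shared an array, were well above all dexamethasone samples, saline 2 was just above them and saline 1 lay within their range. The means were 9.23 ± 0.12 with dexamethasone and 9.51 ± 0.18 with saline (SD, n = 4 each), with a log2 difference of -0.28 (SE 0.12). Without the array of saline 3 and 4 the difference was -0.13, and without the array of saline 1 and 2 it was -0.43.

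All 5 NCAPH probes were lower, from -0.30 to -0.11, and in each of them the groups overlapped. Since they share 54 of 60 bases, this range is close to the spread of 1 site read 5 times. In uncorrected intensity within Cy3, where the median of all spots was also higher with dexamethasone, 4 of the 5 were higher and 1 lower. Within Cy5 all 5 were lower, with log2 differences from -0.26 to -0.09. The other condensin genes had differences of -0.16 (NCAPD2, SE 0.10), -0.14 (NCAPG, SE 0.11, with 3 saline values), -0.24 (SMC4, SE 0.15) and 0.01 (SMC2, SE 0.10). Of these, SMC2 was well above background in 4 dexamethasone but only 2 saline samples.

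MKI67 encodes Ki-67, a protein that coats mitotic chromosomes and is widely used to mark dividing cells. Its probe read 9.52, 9.47, 9.26 and 9.71 in dexamethasone samples 1 to 4 and 9.88, 10.02, 9.89 and 9.94 in saline samples 1 to 4. Every dexamethasone sample was below the lowest saline sample. The means were 9.49 ± 0.18 with dexamethasone and 9.93 ± 0.07 with saline (SD, n = 4 each), with a log2 difference of -0.44 (SE 0.12), of a similar size in Cy3 (-0.49) and Cy5 (-0.39). In uncorrected intensity the groups overlapped in Cy3 and were separate in Cy5.

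**Figure D2:**
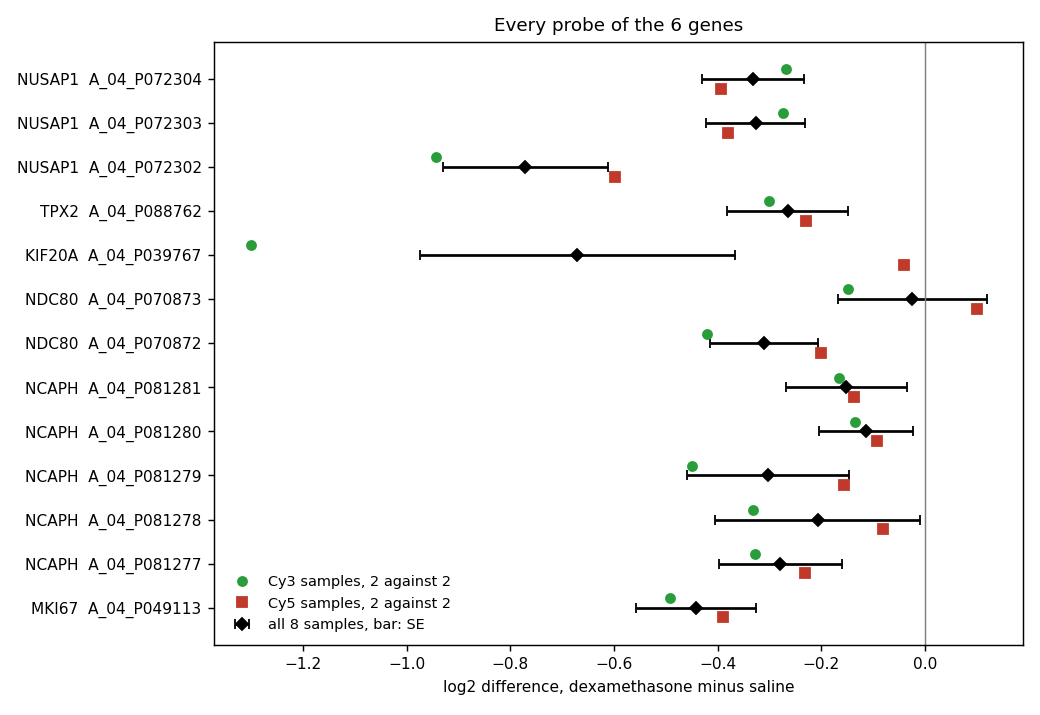
Log2 difference (horizontal axis, dexamethasone minus saline) of each of the 13 probes. Diamonds with SE bars are from all 8 samples, circles from the Cy3 samples and squares from the Cy5 samples. All 13 diamonds lie below 0, the KIF20A probe has its difference in Cy3 alone, and the second NDC80 probe (A_04_P070873) lies at 0 within its SE.

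Over the probes, 13 of 13 differences were below 0 in the main normalisation, against 43.6% of the 20704 probes fitted. The groups did not overlap in 5 of 13 (all 3 NUSAP1 probes, 1 of NDC80 and the MKI67 probe), against 5.86% with dexamethasone lower. These 13 come from 6 genes picked on this contrast and are not independent. Averaged over the 6 genes, a sample's deviation from the gene means was -0.36, -0.18, -0.28 and -0.09 in dexamethasone samples 1 to 4 and 0.26, 0.10, 0.36 and 0.19 in saline samples 1 to 4. The median over the 6, which leans less on any 1 gene such as KIF20A, was -0.24, -0.17, -0.30 and -0.06 with dexamethasone. With saline it was 0.18, 0.21, 0.24 and 0.27, so the order of the saline samples depends on the summary. In dexamethasone 1, 3 and 4 all 6 genes were below their means, and in dexamethasone 2 it was 4 of 6. In saline 3 none was below its mean, in saline 2 and 4 it was 1 gene and in saline 1 it was 2.

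The background estimates of the correction differed between the groups. The correction used here (normexp) estimates a background for each sample, in effect subtracts it from what local background subtraction leaves, and adds 50. The estimates were 23, -31, 20 and -2 in dexamethasone samples 1 to 4 and -117, -195, -536 and -787 in saline samples 1 to 4, in intensity units. Subtracting a negative estimate raises every spot, so dim spots gained most in the saline samples, which compresses log2 differences between dim and bright probes there.

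With background subtraction plus 50 and no such estimate, the same normalisation gave log2 differences of -1.05 (NUSAP1), -0.31 (TPX2), -0.67 (KIF20A), -0.41 (NDC80), -0.34 (NCAPH) and -0.55 (MKI67). The second NDC80 probe, A_04_P070873, was 0.07 in Cy3 and -0.03 in Cy5 under this setting. NUSAP1 then read 7.80, 8.16, 8.48 and 8.52 in dexamethasone samples 1 to 4 and 9.28, 9.06, 9.64 and 9.18 in saline samples 1 to 4. Groups were separate for NUSAP1, NDC80 and MKI67 and for no other of the 6, which were picked on this contrast. The share of all genes with separate groups was not counted in this setting. This setting, chosen after the data were seen, called 7 genes, 4 higher and 3 lower, and 0 of the 6.

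The authors' deposited series table, in which each sample's signal has a median of 1, gave log2 differences of -1.05 (NUSAP1), -0.31 (TPX2), -0.64 (KIF20A), -0.37 (NDC80), -0.23 (NCAPH) and -0.48 (MKI67), with a median over all genes of 0.13. Split by dye on that table, KIF20A was -1.44 in Cy3 and 0.16 in Cy5, and TPX2 was -0.07 in Cy3 and -0.54 in Cy5. NUSAP1, NDC80 and MKI67, by their brightest probes, were below 0 in both dyes. The values were -1.16 and -0.94 (NUSAP1), -0.34 and -0.41 (NDC80) and -0.43 and -0.53 (MKI67), Cy3 before Cy5. The second NDC80 probe was 0.18 in Cy3 and -0.04 in Cy5.

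**Figure D3:**
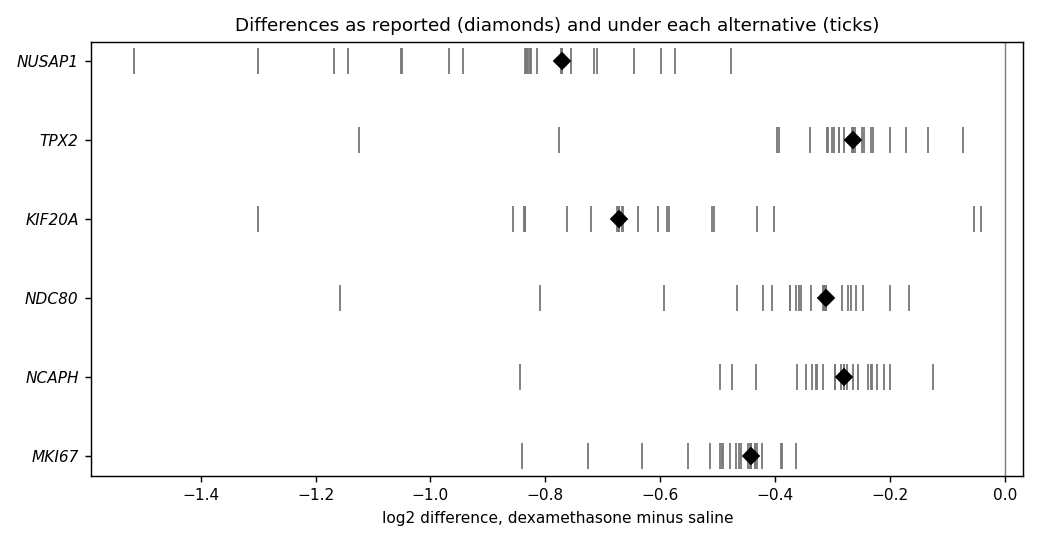
Log2 difference (horizontal axis, dexamethasone minus saline) of each of the 6 genes as reported (diamonds) and under each of 31 alternative settings (ticks), among them every sample or array left out in turn and each dye alone. All 186 ticks lie below 0, and they run from -1.30 to -0.04 in KIF20A, from -1.12 to -0.07 in TPX2 and from -1.52 to -0.48 in NUSAP1. Some settings return the reported difference by design.

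Across 31 other settings, all 186 differences of the 6 genes were below 0. The settings reuse the samples on which the genes were picked. Some of them, such as the fit without the array block, return the same difference by design. The count is therefore a description and no further evidence. In 2 settings some of the 6 passed the threshold, together with many other genes. Scaling to the 75th percentile, which put the median of all genes at -0.30, called 2 of the 6, with 20.4% of all genes called lower. Leaving out the array of saline 1 and 2 called 4 of the 6, with 10.4% of all genes called lower.

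The other genes of the mitotic machinery were taken from 7 lists that do not hold these 6 genes. The fit called 0 of the 91 genes tested in them, and 3 higher and 17 lower had an unadjusted p under 0.05, against 14% of all genes in either direction. List medians of the log2 difference ran from -0.27 to 0.11. Mitotic cyclins and the anaphase-promoting complex, which drive entry into and exit from mitosis, had the lowest median at -0.27, with 11 of 13 tested genes below 0, and it held 8 of those 17 genes. UBE2C, the ubiquitin-conjugating enzyme of that complex, had a log2 difference of -0.59 (SE 0.10, adjusted p = 0.126 by limma), and cyclin B2 (CCNB2) of -0.51 (SE 0.10, adjusted p = 0.169). In the same samples, 5 of 5 UBE2C probes and 3 of 3 CCNB2 probes were below 0. Whether these probes share sequence was not checked, so they may not be separate readings.

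Kinetochore and spindle checkpoint genes had a median of -0.13, with 12 of 14 below 0. MAD2L1, a checkpoint protein, had a log2 difference of -0.39 (SE 0.10, limma adjusted p = 0.262), and BUB1B, a checkpoint kinase, of -0.22 (SE 0.11, adjusted p = 0.404, with 3 saline values). The 4 MAD2L1 probes ran from -0.39 to -0.0016 and the 4 BUB1B probes from -0.28 to -0.22. Spindle microtubule proteins and mitotic motors had a median of -0.06, with 11 of 16 below 0. In that list the microtubule polymerase CKAP5 had a difference of 0.28 (SE 0.10, limma adjusted p = 0.339) and the spindle protein SPAG5 of -0.31 (SE 0.15, adjusted p = 0.371), and the 5 SPAG5 probes ran from -0.50 to -0.31.

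All 5 tested genes of central spindle and cytokinesis, the setting in which KIF20A works, were below 0, with a median of -0.07. The kinase AURKB had a difference of -0.25 (SE 0.09, limma adjusted p = 0.339) and the motor gene KIF20B of -0.24 (SE 0.11, adjusted p = 0.358). KIF20B was well above background in only 2 dexamethasone and 2 saline samples. Condensin, cohesin and chromosome structure genes had a median of -0.09, with 8 of 13 below 0. Securin (PTTG1) had -0.24 (SE 0.09, limma adjusted p = 0.338) and the cohesin loader NIPBL 0.27 (SE 0.10, adjusted p = 0.339), although the second NIPBL probe gave -0.09.

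DNA replication genes, which act before mitosis, had a median of -0.11, with 13 of 18 below 0. The ligase gene LIG1 had a difference of -0.64 (SE 0.25, limma adjusted p = 0.353, with 3 dexamethasone values) and the helicase subunit gene MCM3 of -0.34 (SE 0.14, adjusted p = 0.353). The 5 MCM3 probes ran from -0.34 to 0.04. Regulators of mitotic gene transcription were the one list with a median above 0, at 0.11, with 5 of 12 below 0, and this sign changed under 5 of the alternative settings. There the transcription factor MYBL2 had a difference of -0.32 (SE 0.10, limma adjusted p = 0.306) and the E2F partner TFDP1 of 0.37 (SE 0.15, adjusted p = 0.353). The corresponding figures for all genes tested were a median of 0.02 and 46.1% below 0. For the 6088 tested genes with a symbol they were 0.04 and 41.3%. These lists were chosen with earlier results of these data known.

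**Figure D4:**
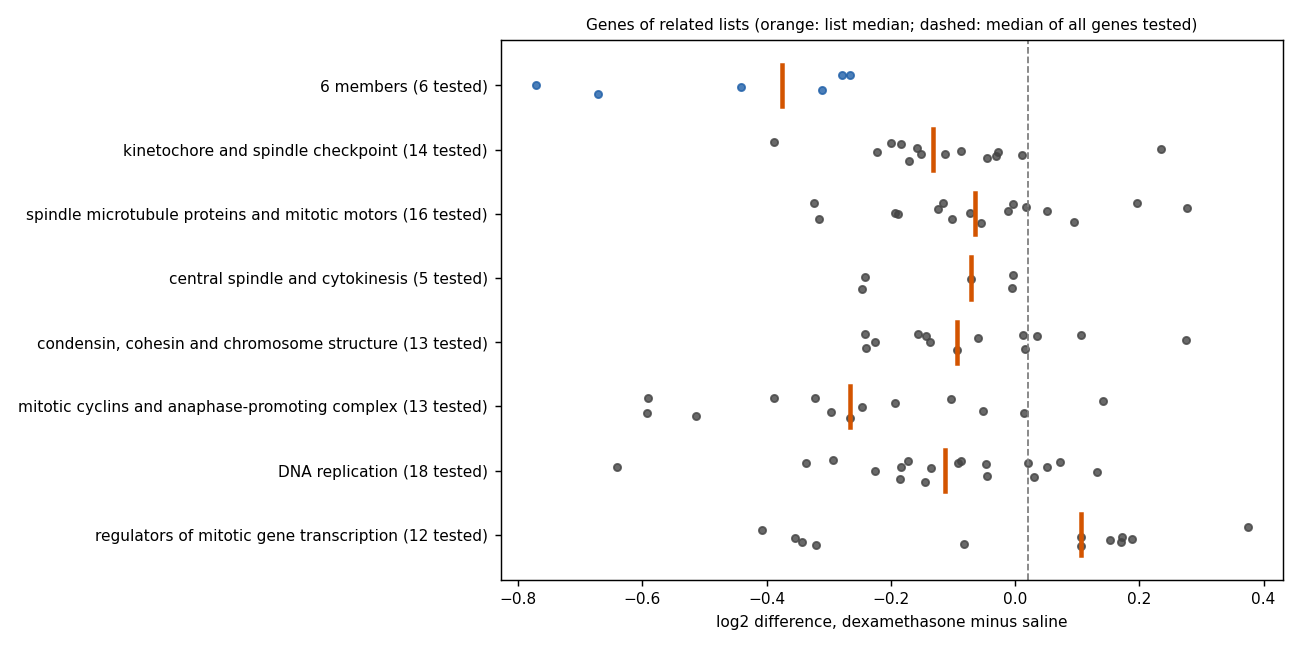
Log2 difference (horizontal axis, dexamethasone minus saline) of the 6 genes (top row) and of each tested gene of the 7 lists, with 1 point per gene. Orange bars are list medians and the dashed line is the median of all genes tested (0.02). The list medians run from -0.27 (mitotic cyclins and anaphase-promoting complex) to 0.11 (regulators of mitotic gene transcription), and genes lie on both sides of 0 in every list except central spindle and cytokinesis.

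The genes whose profile over the 8 samples was most like the mean profile of the 6 were sought among 5508 genes with a symbol. Likeness was the root mean square difference of the deviations from the gene mean, after the dye effect was removed, and its median over these genes was 0.31. The nearest 10 included CYP2C16 (0.049), NANP, CXCL8, PHRF1, CUL5, POP1, FAM136A, CCDC97 and NR1H3 (0.080). Their log2 differences ran from -0.53 (POP1) to -0.38 (CUL5), with adjusted p from 0.213 to 0.315 (limma, Benjamini-Hochberg). The search picked them for a profile like that of the 6, so differences of this size were set by it. None of these 10 is on any of the 7 lists. With 91 list genes tested and 5508 genes searched, few of any 10 genes would be.

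Markers of the cells that a forebrain sample could hold were read on the same arrays. Of the 44 tested, 0 were called, against 0.0649% of all genes. An unadjusted limma p under 0.05 was reached by 4 higher and 5 lower, against 14% of all genes in either direction. Of 16 progenitor and radial glia genes, 6 were tested, with a median log2 difference of 0.04 and a summed log2 level of 12.12 to 12.48 with dexamethasone and 12.22 to 12.36 with saline. Of 11 oligodendrocyte precursor genes, 4 were tested, with a median of -0.05 and a summed level of 11.38 to 11.62 with dexamethasone and 11.50 to 11.77 with saline. SOX2, PDGFRA, OLIG1, OLIG2 and MBP had no probe with that name. Median differences were 0.11 over 8 neuron genes, 0.05 over 7 endothelial genes and -0.05 over 4 microglia genes. Among forebrain transcription factor genes, EMX2 had a difference of -0.74 (SE 0.41), DLX5 of -0.17 (SE 0.21) and LHX2 of 0.06 (SE 0.23). The summed level of these 3 was 10.80 to 11.63 with dexamethasone and 11.25 to 11.70 with saline, which overlapped.

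The forebrain label was checked against its markers. LHX2, a transcription factor of the forebrain, stood well above background in all 8 samples, whereas EMX1 and TBR1 had no probe with that name. The best probe of DLX5 was well above background in 7 samples and that of EMX2 in 5. The neuron gene STMN2 was also well above background in 8 of 8 samples. Of the liver genes used as a contrast, APOA1 and FGA were so in 0 of 8 samples, ALB in 1 and FGB in 3. TTR, which the choroid plexus also makes, was so in 8 of 8. AHSG, the 1 liver gene tested, was so in 7 of 8 and had a difference of -0.19. The liver genes were thus not all absent.

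In 2 marker lists the summed level separated the groups in the same direction as the 6 genes. Of 11 oligodendrocyte genes, 6 were tested, with a median difference of 0.13 and 4 above 0, and their summed level was 14.37 to 14.71 with dexamethasone and 14.84 to 15.30 with saline. That sum is mostly GJB1, a gap junction gene with a difference of -0.64 (SE 0.15). Of 10 blood cell genes, 4 were tested, with a median of -0.09 and 2 above 0. The summed level of the 3 with all values was 10.73 to 10.78 with dexamethasone and 11.10 to 11.38 with saline. That sum leaves out the brightest of the 4, which lacked a saline value and was above 0. The 2 genes below 0 in that list were S100A9, a neutrophil gene, at -0.93 (SE 0.13), and MS4A1, a B cell gene, at -0.35 (SE 0.12). MS4A1 stood well above background in all 8 samples. PTPRC and CD3E, which define leukocytes and T cells, were well above background in 0 of 8 samples. Whether these cells have a part in the values of the 6 genes was not tested.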

How the data were processed

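Forebrain RNA of 8 pups was read on 4 Agilent 2-colour arrays. The files the authors deposited give, for each spot and dye, the mean, median and background intensity and a processed signal, made with Agilent Feature Extraction (10.7.3.1 per the submitters' processing notes, 11.0.1.1 per the file headers). The build per the file headers is oryCun2. The deposited series table holds a signal per spot, which matched median minus background intensity divided by a constant per column. Column medians are 1, so its scale and direction are known.

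Each sample was read from its own dye. Mean and background median intensities were corrected with normexp (offset 50, limma 3.58.1 in R 4.3.3), normalised by loess within arrays and Aquantile between arrays, and taken as log2. Outlier and control spots were left out. A probe was kept if 4 or more samples had it well above background (23165 probes), a gene was taken from its brightest kept probe, and it needed 3 values per group. Names came from the array's annotation and a RefSeq table of mOryCun1.1 (22484 probes with 1 symbol, 21 with several, 21098 with none). Dexamethasone was compared with saline by limma with dye as a term and array as a random block (correlation 0.24), and p-values were adjusted by Benjamini-Hochberg over 10790 genes. SEs of member genes are from this fit, and those of further probes from the same fit over 20704 probes. The median SE was 0.13. Data with 10790 genes were simulated from the fitted model itself, with no slide or scan effect, so recovery there is a best case. On them the fit called 32% of 50 genes changed by a log2 of 0.5, 84% at 1, 98% at 2 and 100% at 3. It also called 21 of 10590 unchanged genes.

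The 6 genes, the lists and the alternatives were chosen with earlier results of these data known. Named genes are every probe of the 6, the 2 genes with the smallest p per list, and the 10 nearest profiles. Some genes that this rule or the marker lists name are not reported here. AURKA, NUF2, SPC25, NCAPD2, NCAPG, SMC2 and SMC4, as partners of the 6, and GJB1, S100A9, MS4A1, EMX2, DLX5 and LHX2 were named after their values were seen. The series design calls the samples biological replicates.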

Additional observations from a re-analysis of the deposited data

Results flagged for a closer look

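Among the 26 sets of 4 samples checked (13 probes in 2 groups), 1 held a sample far from the others. In the NCAPH probe A_04_P081278, dexamethasone 1 read a log2 intensity of 8.30, against 8.89 for the nearest of the other 3 dexamethasone samples. This gap is 0.837 of the group's range, above Dixon's critical value at 95%. About 1 in 20 such sets exceeds it by chance. The probe was not well above background in that sample, and the other 4 NCAPH probes, which share 54 bases with it, showed no such gap.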

How the results depend on the processing

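All 186 member differences under 31 settings were below 0, in the same samples on which the genes were picked. The 28 planned settings were joined by 3 chosen after the data were seen (each dye alone, and background subtraction plus 50). Where values moved, the cause was not tested.

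The number of genes called, 7 as reported (2 higher, 5 lower), was 14 with the processed signal (6 higher, 8 lower), 0 without normalisation between arrays, 2222 with the 75th percentile (48 higher, 2174 lower), 2 with no filter on dim probes, 29 without the array block, 18 without the dye term, and 0 to 9 with 1 sample left out (0 without any 1 dexamethasone sample, 4 without saline 1). It was 2258 without array 1 (saline 1 and 2), 225 without array 2 (saline 3 and 4), 0 without array 3 (dexamethasone 1 and 2), 0 without array 4 (dexamethasone 3 and 4), and 0 in Cy3 alone and in Cy5 alone. Where limma called 0, an unadjusted p under 0.05 was reached by 623, 1121, 933 and 1029 genes without dexamethasone 1 to 4, 3291 genes without normalisation between arrays, 541 without array 3, 663 without array 4, 1359 in Cy3 and 767 in Cy5. Quantile normalisation called 7 (4 higher, 3 lower) and subtraction with a floor 10 (6 higher, 4 lower). Deviations of same-numbered samples of the 2 groups showed little correlation (-0.06 and 0.00 over 9789 genes). With 2 samples per dye and group only 2 distinct values exist, so this cannot exclude a pairing by replicate number. The fit with the replicate block called 5 genes.

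NUSAP1 was -1.14 with subtraction and a floor, -1.30 with the processed signal, -1.52 without normalisation between arrays, -1.17 with the 75th percentile, -0.48 as the mean of its probes, -1.05 with the deposited table and -1.05 with subtraction plus 50. With the processed signal NCAPH was -0.48, NDC80 -0.59 and MKI67 -0.73. Subtraction with a floor gave -0.47 for NDC80 and -0.63 for MKI67, and the mean of probes -0.17 for NDC80. Without normalisation between arrays, which put all genes at a median of -0.64, TPX2 was -1.12, NCAPH -0.84, NDC80 -1.16 and MKI67 -0.84. With the 75th percentile (all genes -0.30), TPX2 was -0.78, KIF20A -0.054, NCAPH -0.50 and NDC80 -0.81. KIF20A was -1.30 in Cy3 and -0.041 in Cy5.

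List medians moved most with the scaling. Without normalisation between arrays they were -1.04 (kinetochore), -1.15 (spindle), -1.23 (central spindle), -0.63 (condensin and cohesin), -0.75 (cyclins), -0.52 (replication) and -0.85 (regulators), and with the 75th percentile -0.70, -0.80, -0.88, -0.28, -0.41, -0.18 and -0.50 in that order. The processed signal gave -0.23 (kinetochore), -0.13 (spindle), -0.15 (central spindle), -0.53 (cyclins) and 0.0051 (regulators). The deposited table (all genes 0.13) gave -0.13 (spindle), -0.15 (central spindle), 0.019 (replication, a reversed sign) and 0.23 (regulators). The kinetochore median was -0.046 with no filter, -0.056 without array 1 and -0.039 in Cy5. The spindle median was -0.15 with subtraction and a floor and -0.0041 with probes well above background in all samples. The central spindle median was -0.14 without array 2. The cyclin median was -0.43 with subtraction and a floor and -0.36 with subtraction plus 50. The replication median was -0.076 with quantile normalisation, -0.069 with all 8 values, -0.12 to -0.073 with 1 sample left out (the last without dexamethasone 4), -0.078 without array 1, -0.063 without array 2 and -0.070 in Cy5. The regulator median turned below 0 at -0.11 with probes well above background in all samples, -8.7e-04 as the mean of probes and -0.084 without array 2, and was 0.0067 without array 3, 0.0079 without array 4 and 0.0011 in Cy5.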
